A study of Mus musculus with 12 samples.

Results

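The PRAME family genes were 9 genes of the deposited count table, taken as those whose symbol began with Prame, together with BC080695, if they held at least 10 counts over the 12 libraries. Of 22753 genes in the table, 13 entries matched by name, and 4 of them fell short: Prame with 9 counts, Pramel3 with 7 counts, and Pramel4 and a second BC080695 entry on a patch sequence with 0 counts. The kept gene nearest to the minimum was Pramel7, with 223 counts. RNA sequencing was done on mouse embryonic stem cells of 2 clones, 10 and 4, each a single line derived from animals that carried floxed Sphk1 alleles and lacked Sphk2. Sphk1 and Sphk2 encode the sphingosine kinases, which make the signalling lipid sphingosine 1-phosphate. In medium with LIF and serum, all cells were treated with the Cre inducer 4-hydroxytamoxifen at 6 uM over 48 hours, and were then sorted by Cre-GFP. GFP-positive cells were labelled Sphk1-/- Sphk2-/- and GFP-negative cells Sphk1fl/fl Sphk2-/-, so that both lacked Sphk2 and differed in Sphk1, in Cre-GFP and in the sort. Each clone gave 3 GFP-positive and 3 GFP-negative libraries, and nothing in the labels said that replicates were separate cultures. The p-values therefore reflect only how these libraries varied, which may be in part technical.

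PRAME proteins are built largely of leucine-rich repeats and belong to a family that has expanded into tandem gene copies in the mouse. Human PRAME, a tumour antigen normally found in testis, recruits substrates to a ubiquitin ligase built on cullin 2 and can repress retinoic acid receptor signalling. In mouse embryonic stem cells, Pramel7 is known to direct the DNA methylation cofactor UHRF1 to degradation through cullin 2, and both Pramel6 and Pramel7 are known as factors of ground-state pluripotency. Several tandem copies of the family are known to be transcribed at the 2-cell stage and in the rare stem cells that resemble it.

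Of the 9 genes, 7 lay on chromosome 4 between 143394428 and 144408464 (mm10), in the order Pramel1, Pramef8, BC080695, Pramef6, Pramef17, Pramel5 and Pramef12. The other two, Pramel7 (chr2:87489087-87497093, minus strand) and Pramel6 (chr2:87506565-87510872, plus strand), were neighbours on chromosome 2. A further 29 genes of the table had oogenesin names or had other symbols there and PRAME names in RefSeq, and are called relatives here. Together, 23 genes of both kinds stood in the chromosome 4 stretch, or 24 with Pramel4, which was left out for its counts. All 9 genes are protein-coding, with 1374 to 1500 coding bases. Pramef12 overlapped the antisense gene Pramef12os, and BC080695 overlapped Gm13057 on its own strand, so reads of such partners may not have been told apart.

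The family divided by how much sequence its members share with other genes, which bears on which copy a read was given to. In the longest GENCODE M21 transcript of each gene, 73.5% of 50-base windows of Pramef17 also occurred in a transcript of another gene, as did 55.3% of those of BC080695, 35.2% of Pramef6 and 27.1% of Pramel5. The share was 0.442% in Pramel7 and 0.0% in Pramel1, Pramef8, Pramef12 and Pramel6. Among the 9 genes themselves, coding sequences were 55.7% to 82.1% identical over 36 pairs, with a median of 59.9% and the highest value between Pramel5 and Pramef6. The closest copies stood among the relatives. Pramef17 was 99.3% identical to Gm13128 in its coding sequence, BC080695 96.7% to Gm13119 and Pramef6 95.7% to Gm13078. The split of counts between these copies is uncertain, because the treatment of reads that match several genes is not given in the sources used here.

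The copies also resembled each other upstream. RefSeq promoter windows (GRCm38.p6, from 250 bases before to 50 after the start) were found for 8 of the 9 genes, all but Pramef8, and for 22 of the 29 relatives. The windows of Pramef6 (chr4:143900331-143900630, minus strand) and Gm13078 (chr4:143719201-143719500, plus strand) were 86.7% identical. Those of BC080695 (chr4:143567217-143567516, plus strand) and Gm13119 (chr4:144357714-144358013, plus strand) were 83.7% identical. They are shown because these genes moved together, beside the window of Pramef12 (chr4:144408415-144408714, minus strand), a gene that passed no test in either clone. Capitals mark the longest run that each pair of copies shares without a mismatch, 78 bases in the first pair and 47 bases in the second, and in Pramef12 the longest run it shares with Pramef6, of 8 bases.
Pramef6: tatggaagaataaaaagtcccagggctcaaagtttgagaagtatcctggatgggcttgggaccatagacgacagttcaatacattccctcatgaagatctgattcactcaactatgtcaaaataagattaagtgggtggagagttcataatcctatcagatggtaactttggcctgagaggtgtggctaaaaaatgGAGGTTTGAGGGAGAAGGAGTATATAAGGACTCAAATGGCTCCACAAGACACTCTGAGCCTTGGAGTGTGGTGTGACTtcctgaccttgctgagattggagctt
Gm13078: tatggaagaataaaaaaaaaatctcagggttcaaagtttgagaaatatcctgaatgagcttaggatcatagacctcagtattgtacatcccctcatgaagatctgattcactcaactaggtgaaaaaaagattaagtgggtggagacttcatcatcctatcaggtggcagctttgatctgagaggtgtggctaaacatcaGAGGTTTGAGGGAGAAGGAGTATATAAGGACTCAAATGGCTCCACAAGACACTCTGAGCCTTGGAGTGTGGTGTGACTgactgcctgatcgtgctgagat
BC080695: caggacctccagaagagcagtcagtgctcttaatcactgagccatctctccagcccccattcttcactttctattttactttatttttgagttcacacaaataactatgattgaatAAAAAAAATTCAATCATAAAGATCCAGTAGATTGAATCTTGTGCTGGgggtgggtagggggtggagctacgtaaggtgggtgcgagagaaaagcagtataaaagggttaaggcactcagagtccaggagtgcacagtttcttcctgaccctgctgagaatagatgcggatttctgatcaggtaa
Gm13119: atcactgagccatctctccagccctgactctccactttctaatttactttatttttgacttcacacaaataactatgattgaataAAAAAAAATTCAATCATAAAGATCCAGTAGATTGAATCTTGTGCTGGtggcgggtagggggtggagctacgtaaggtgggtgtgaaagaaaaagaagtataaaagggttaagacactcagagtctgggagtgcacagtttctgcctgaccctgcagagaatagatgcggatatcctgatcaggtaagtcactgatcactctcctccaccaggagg
Pramef12: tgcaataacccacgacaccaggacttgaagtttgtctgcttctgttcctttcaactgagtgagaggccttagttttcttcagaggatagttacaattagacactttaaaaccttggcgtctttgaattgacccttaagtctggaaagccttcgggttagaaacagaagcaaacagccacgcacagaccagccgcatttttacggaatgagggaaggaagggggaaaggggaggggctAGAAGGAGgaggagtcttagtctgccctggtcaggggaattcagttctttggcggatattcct
Between the 8 windows of the family itself, identity ran from 46.0% to 78.0% over 28 pairs, with a median of 51.8%. The highest value was between Pramel7 and Pramef17, which also shared the longest run, of 23 bases. Members that rose in clone 10 shared runs about as short as that marked in Pramef12. Examples are 7 bases between Pramef17 and Pramel5, 8 between Pramef6 and Pramel5 and 10 between BC080695 and Pramef6. The short run therefore does not set Pramef12 apart. The window of BC080695 starts at the later of its annotated starts, that of Pramel7 lies inside the annotated gene, and the other 6 windows are set on a start within 22 bases of the annotated one.

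Short motifs were counted on both strands of these windows. TATAAA was present in 1 of 8 windows, that of BC080695, and in 8 of 22 windows of relatives, against 13.6% of 32817 promoter windows of all genes. CCAAT was present in 4 of 8 windows, those of Pramel6, Pramel5, Pramel1 and Pramef6, and in 9 of 22 of the relatives, against 37.4% of all windows. TTCNNNGAA, the pattern that STAT factors recognise, occurred in 0 of 8 and 0 of 22 windows against 8.29% of all. TGCACAC, a pattern given for the Zscan4 factors, occurred in 0 of 8 and 0 of 22 against 4.40% of all. A match is a description of the letters only, and none of these motifs contains another.

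Libraries held 12968916 to 34258395 counts, the shallowest being clone 10 GFP-negative replicate 1. Sphk1, the targeted gene, changed by -0.63 on the log2 scale over both clones without pairing (SE 0.46, edgeR adjusted p = 0.767) and by -0.61 within pairs (SE 0.25, adjusted p = 0.166), neither passing the test. The count of the whole gene may include exons outside the deleted part and so checks the labels only weakly. Libraries of both sorts that shared a clone and a replicate number deviated in the same direction, so each comparison is given across all libraries and within the 6 pairs. By their labels, the GFP-positive cells were 1 passage ahead of the GFP-negative cells in 5 of the 6 pairs. The passage labels rise in the order in which the libraries are listed, so they may not be true passages. Mitochondrial genes took a larger share of counts in GFP-positive cells in all 6 pairs. It was 0.849% to 2.32% in clone 10 GFP-positive libraries against 0.143% to 2.11% in the GFP-negative ones, and 0.851% to 2.21% against 0.594% to 1.43% in clone 4. The part of passage and of this share in the results was not tested. In such bulk samples, fewer cells of a type and less RNA per cell cannot be told apart.

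In clone 10 the family was compared between both sorts first. Within pairs, 6 of the 9 genes rose: Pramef6, BC080695, Pramel5, Pramef17, Pramel1 and Pramef8. They passed an adjusted p under 0.05 in edgeR's quasi-likelihood test over all 15179 genes tested, of which 3.49% were called higher. The 4 genes that share sequence with other copies rose most, by 3.53 to 4.93 on the log2 scale, and Pramel1 and Pramef8, whose transcripts share none, by 1.89 and 0.90. Without pairing, 0 of the 9 were called, as were 0% of all genes. At an unadjusted p under 0.05 that fit held 6 of the 9 and 1131 of all genes, and DESeq2 without pairing called 5 of the 9, all higher, and 1.86% of all genes higher. The unpaired edgeR fit called 3 of the 9 without clone 4 GFP-positive replicate 1, and 1 of them when clone 10 GFP-positive replicate 2 was left out. The share of all genes called is not given for these or later fits with libraries left out. Such counts therefore describe the fits and are no result about the family.

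BC080695 (RefSeq Pramel20, chr4:143551700-143573798, plus strand) had 454, 58.7 and 285 counts per 1000000 library counts (CPM) in replicates 1 to 3 of clone 10 GFP-positive cells, against 20.7, 6.81 and 9.98 CPM in GFP-negative cells. All GFP-positive libraries stood above all GFP-negative ones, with replicate 2 the lowest of each. The GFP-positive library exceeded its partner 21.9-fold, 8.62-fold and 28.6-fold in the 3 pairs. The log2 change within pairs was 4.02 (SE 0.43, edgeR adjusted p = 0.00212). It was the most abundant of the 9 genes by CPM in clone 10 GFP-positive cells, but not in the GFP-negative ones.

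Pramef6 (RefSeq Pramel11) changed most in clone 10. It had 103, 15.1 and 63.0 CPM in GFP-positive replicates 1 to 3 and 1.85, 1.13 and 1.24 CPM in GFP-negative ones. The groups did not overlap, and replicate 2 was again the low GFP-positive library. The log2 change within pairs was 4.93 (SE 0.36, edgeR adjusted p = 0.00129), and the partners differed 55.6-fold, 13.3-fold and 50.8-fold.

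Pramef17 (RefSeq Pramel14) had the same order of GFP-positive libraries at a lower level. Its GFP-positive replicates 1 to 3 held 28.1, 7.50 and 21.3 CPM, against 0.771, 1.59 and 1.34 CPM in GFP-negative cells, with no overlap. The log2 change within pairs was 3.53 (SE 0.65, edgeR adjusted p = 0.0219). Pramel5, a low-count gene of 256 counts in all, held 5.96, 0.753 and 4.19 CPM in GFP-positive cells against 0.154, 0.153 and 0.334 CPM in GFP-negative cells. Here too all GFP-positive libraries were higher, and replicate 2 was the lowest of them. Its log2 change within pairs was also 3.53 (SE 0.55, edgeR adjusted p = 0.0211).

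Family genes with sequence of their own changed less in clone 10. Pramel1, a family member known from testis, had 30.03, 12.1 and 22.9 CPM in GFP-positive and 2.24, 5.80 and 7.59 CPM in GFP-negative replicates. The groups did not overlap, and the lowest GFP-negative value was in the shallowest library. The log2 change within pairs was 1.89 (SE 0.39, edgeR adjusted p = 0.0345). Pramef8 (RefSeq Pramel12) had 78.4, 40.6 and 60.8 CPM in GFP-positive and 25.8, 29.6 and 30.4 CPM in GFP-negative replicates. Its groups stood apart as well, and the log2 change was 0.90 (SE 0.18, edgeR adjusted p = 0.0294).

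Pramef12 (RefSeq Pramel13), known for its role in mouse spermatogonial stem cells, was at nearly the same level in both sorts of clone 10. It had 40.5, 26.6 and 43.3 CPM in GFP-positive and 41.6, 24.2 and 32.5 CPM in GFP-negative replicates, which overlapped. The log2 change within pairs was 0.05, with a 95% interval from -0.29 to 0.40 (edgeR adjusted p = 0.843).

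The pair on chromosome 2 did not pass the test. Pramel7 had 2.25, 1.51 and 2.42 CPM in GFP-positive and 0.694, 1.04 and 0.382 CPM in GFP-negative replicates of clone 10, with no overlap between the groups. Its log2 change within pairs was 1.40 (SE 0.54, edgeR adjusted p = 0.169). Pramel6 had 1.78, 0.813 and 4.54 CPM against 0.308, 0.429 and 1.81 CPM, and these values overlapped. Each GFP-positive library of Pramel6 was above its partner, and the log2 change was 1.36 (SE 0.44, edgeR adjusted p = 0.117). In all, 7 of the 9 genes had every GFP-positive library of clone 10 above every GFP-negative one, all but Pramef12 and Pramel6, as did 10.9% of the genes tested. Pramel7, Pramel6 and Pramel5 are low-count genes that reached the filter through clone 10 GFP-positive libraries, in which they were high, so their presence among the genes tested is no support for a difference.

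**Figure D1:**
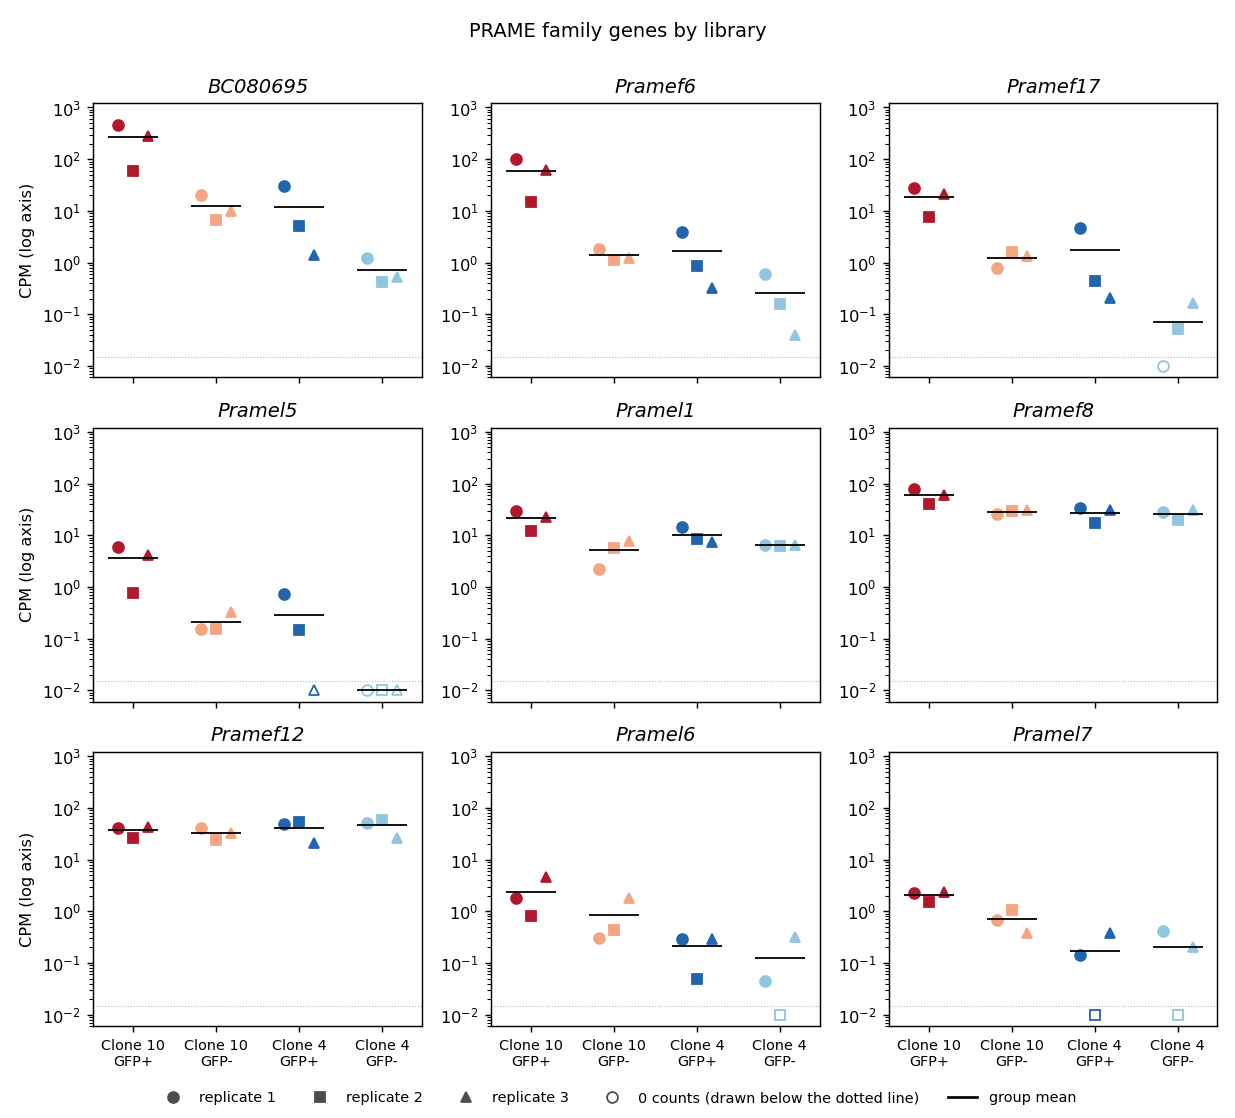
CPM (log axis) of the 9 PRAME family genes in each library of clone 10 GFP-positive, clone 10 GFP-negative, clone 4 GFP-positive and clone 4 GFP-negative cells. Symbols are replicates 1 to 3, bars are group means, and open symbols below the dotted line are libraries with 0 counts. BC080695 spans 58.7 to 454 CPM in clone 10 GFP-positive cells against 0.417 to 1.23 CPM in clone 4 GFP-negative cells, while Pramef12 stays between 21.4 and 59.6 CPM in all 12 libraries.

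The authors' deposited table for clone 10 gave log2 fold changes of 3.22 for Pramef6 (adjusted p = 2.97e-12), 2.71 for Pramef17, 2.38 for BC080695, 2.03 for Pramel5 and 1.47 for Pramel1. In the authors' deposited table Pramef8 had 0.80 with an adjusted p of 0.0815. The order of these genes by size differed from that of the within-pair fit used here, and the deposited values were smaller for every gene named. The measures may be on unlike scales, so their sizes cannot be compared directly. Pramel5, with 18 counts in clone 4 GFP-positive and 0 in GFP-negative cells, had a deposited value of only 0.29 (SE 0.18). For clone 4 the authors' deposited table gave 1.05 for BC080695 and 0.66 for Pramef17, both with no p-value, and 0.60 for Pramef6 and 0.52 for Pramel1, both with an adjusted p of 0.9999.

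Clone 4 was compared in the same way, and in it 0 of the 9 genes were called within pairs or without pairing, while 0.0725% of all genes were called higher within pairs. Without pairing the background was 0%, with 209 genes and 4 of the 9 at an unadjusted p under 0.05, and DESeq2 called 2 of the 9 higher in each fit, against 0.191% of all genes without pairing and 0.58% within pairs. BC080695 had 30.002, 5.08 and 1.37 CPM in clone 4 GFP-positive replicates 1 to 3 against 1.23, 0.417 and 0.526 CPM in GFP-negative ones. The groups did not overlap, yet the lowest GFP-positive library exceeded the highest GFP-negative one by little, and replicate 1 was highest in both sorts. Its log2 change within pairs was 3.59 (SE 0.58, edgeR adjusted p = 0.0629), short of the threshold. When pair 1 or pair 2 of clone 10, which share the estimate of spread, was left out, 2 of the 9 genes were called in clone 4.

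Pramef6 had 3.89, 0.871 and 0.321 CPM in clone 4 GFP-positive cells against 0.593, 0.156 and 0.0405 CPM in GFP-negative cells. The groups overlapped, but each GFP-positive library was above its own partner, by 6.57-fold, 5.58-fold and 7.93-fold. The log2 change within pairs was 2.63 (SE 0.54, edgeR adjusted p = 0.133). Pramef17 had 4.71, 0.436 and 0.204 CPM against 0, 0.0521 and 0.162 CPM, values that did not overlap and rest on 114 counts against 5. Its log2 change was 4.00 (SE 1.19, edgeR adjusted p = 0.451).

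Pramel5 held 18 counts in clone 4 GFP-positive cells, at 0.721, 0.145 and 0 CPM, and 0 counts in all 3 GFP-negative libraries. Against a floor of 3 counts over the GFP-negative group it was at least 5.22-fold higher, and it was not called (edgeR adjusted p = 0.393 within pairs). The floor covers counting error of the GFP-negative group only, and gives the 18 counts no error of their own.

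Pramel1 had 14.5, 8.38 and 7.50 CPM in clone 4 GFP-positive cells and 6.52, 6.20 and 6.35 CPM in GFP-negative cells. These groups did not overlap, and the GFP-negative values were close together. The log2 change was 0.63 (SE 0.38, edgeR adjusted p = 0.70). Pramef8 had 33.5, 17.0 and 30.4 CPM against 27.7, 19.7 and 30.4 CPM, overlapping values with a change of 0.04 (95% interval -0.36 to 0.44). Pramef12 had 48.0, 54.0 and 21.4 CPM against 52.2, 59.6 and 25.8 CPM. The GFP-positive library of Pramef12 was below its partner in each pair of clone 4 by less than the spread between replicates, and the change was -0.16 (95% interval -0.51 to 0.18). Pramel6 ranged from 0.0484 to 0.292 CPM in GFP-positive and from 0 to 0.324 CPM in GFP-negative cells, and Pramel7 from 0 to 0.379 CPM and from 0 to 0.410 CPM, near the limit of what these depths can count. Non-overlap with GFP-positive libraries on top held for 3 of the 9 in clone 4, BC080695, Pramef17 and Pramel1, against 1.61% of the genes tested.

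**Figure D2:**
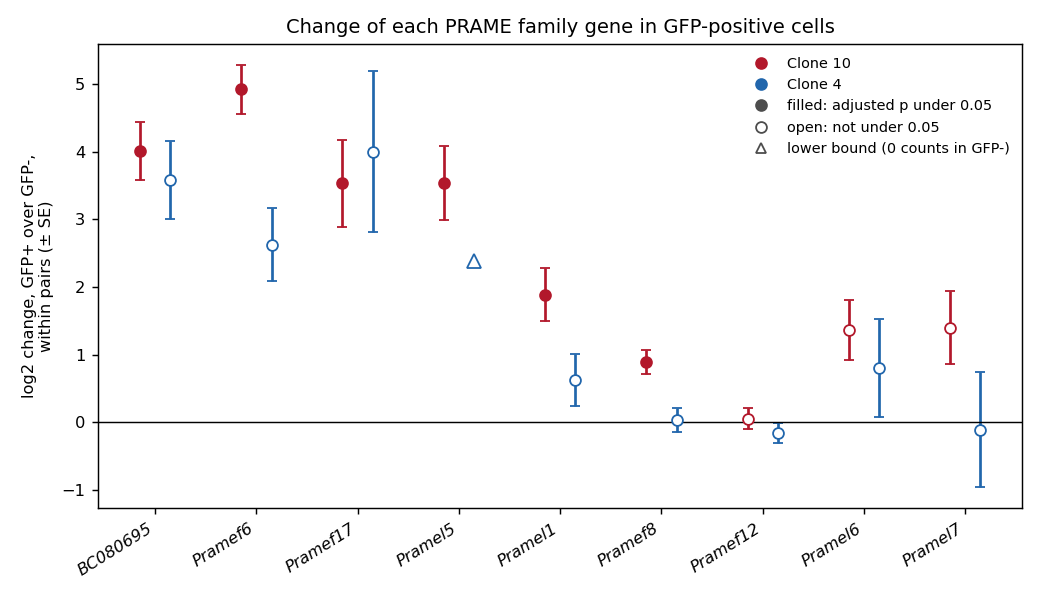
Log2 change in GFP-positive over GFP-negative cells within pairs (± SE) for each PRAME family gene in clone 10 and clone 4. Filled symbols have an edgeR adjusted p under 0.05, and the triangle is the lower bound for Pramel5 in clone 4, where GFP-negative cells had 0 counts. In clone 10, 6 genes are filled, with Pramef6 highest at 4.93, and no gene is filled in clone 4.

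Taken over both clones within pairs, 5 of the 9 genes were called higher, against 2.51% of all genes. Pramef6 changed by 3.78 (SE 0.32, edgeR adjusted p = 0.00104), BC080695 by 3.80 (SE 0.36, adjusted p = 0.00144), Pramef17 by 3.77 (SE 0.66, adjusted p = 0.0218) and Pramel1 by 1.26 (SE 0.27, adjusted p = 0.0461). Pramel5 was called at an adjusted p of 0.0267, with a fitted change that is no bound because of its 0 counts in clone 4 GFP-negative cells. Pramef8 changed by 0.47 (SE 0.13, adjusted p = 0.0836). BC080695, Pramef6, Pramef17 and Pramel1 were higher in the GFP-positive library of 6 of 6 pairs, as were 8.29% of genes tested. Pramel5, Pramef8 and Pramel6 were higher in 5 pairs, Pramel7 in 4 and Pramef12 in 2.

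Some of these calls changed when a pair was left out. Without pairing, the mean over both clones gave 0 calls among the 9, against 0.152% of all genes called higher. BC080695 and Pramef6 were then both at an edgeR adjusted p of 0.0510, 6 of the 9 and 1028 of all genes were at an unadjusted p under 0.05, and DESeq2 called 5 of the 9 higher against 1.82% of all genes. That unpaired fit gave 3 calls without clone 4 GFP-positive replicate 2 or clone 10 GFP-positive replicate 2, and 4 when clone 4 GFP-positive replicate 3 was dropped. Within pairs, leaving out the clone 4 pair of replicate 1 took the calls to 2 and the change of Pramef17 to 2.46, leaving out that of replicate 2 took them to 3, and leaving out the clone 10 pair of replicate 3 took them to 2 both for the mean and for clone 10 alone.

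Whether the clones differed in their response was tested as an interaction, and 0 of the 9 genes and 0% of all genes were called, in either fit. Within pairs, Pramef8 changed more in clone 10 by 0.86 (SE 0.25, unadjusted p = 0.00820, edgeR adjusted p = 0.539), Pramef6 by 2.3 (SE 0.74, unadjusted p = 0.0136, adjusted p = 0.573) and Pramel1 by 1.26 (SE 0.54, unadjusted p = 0.0461, adjusted p = 0.643). For BC080695 the difference was 0.43, with a 95% interval from -1.28 to 2.15. The unpaired edgeR fit held 1 of the 9 genes and 140 of all genes at an unadjusted p under 0.05, and DESeq2 called 0 of the 9, against 0% of all genes, or 0.408% within pairs. The calls in clone 10 and their lack in clone 4 therefore do not show a difference between the clones.

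Levels were also compared between the clones, whose passage labels differed as well. These were 11 to 16 in clone 4, and 11, 12 and 17 to 20 in clone 10. Among GFP-positive cells, Pramef6 was called higher in clone 10 than in clone 4, by 5.22 (SE 0.98, edgeR adjusted p = 0.0345), the one gene of the 9 to pass, against 0.83% of all genes. DESeq2 called 7 of the 9 higher, against 3.68% of all genes, and edgeR called 3 without clone 4 GFP-positive replicate 1, and 2 when clone 10 GFP-positive replicate 2 was left out. The edgeR call of Pramef6 was lost without clone 10 GFP-positive replicates 1 or 3, without clone 4 GFP-positive replicates 2 or 3, and without clone 10 GFP-negative replicate 2. BC080695 stood at 266 ± 198 CPM in clone 10 and 12.2 ± 15.6 CPM in clone 4 (SD, n = 3 each), a change of 4.51 (SE 1.04, adjusted p = 0.0567). Pramef8 was at 60.0 ± 18.9 CPM against 27.0 ± 8.72 CPM, a change of 1.17 (SE 0.31, adjusted p = 0.0885). All clone 10 GFP-positive libraries were above all clone 4 ones for 7 of the 9 genes, all but Pramel1 and Pramef12, against 11.5% of genes tested.

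Among GFP-negative cells 0 of the 9 were called between the clones, against 0.0395% of all genes called higher, with 5 of the 9 and 1802 of all genes at an unadjusted p under 0.05 and DESeq2 called 2 of the 9 higher against 1.57%. BC080695 was at 12.5 ± 7.30 CPM in clone 10 and 0.725 ± 0.442 CPM in clone 4 (SD, n = 3 each), a change of 4.29 (SE 1.11, edgeR adjusted p = 0.170). Pramef12 was at 32.8 ± 8.69 CPM against 45.9 ± 17.8 CPM, and Pramel1 at 5.21 ± 2.72 CPM against 6.36 ± 0.160 CPM. BC080695, Pramef6, Pramef17 and Pramel5 had all clone 10 GFP-negative libraries above all clone 4 ones, as did 4.29% of genes tested.

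Set per kilobase of coding sequence, the order of levels changed between the groups. In clone 10 GFP-positive cells BC080695 led with 184 ± 137 CPM per kb (SD, n = 3), followed by Pramef8 with 41.6 ± 13.1, Pramef6 with 41.1 ± 30.0, Pramef12 with 26.5 ± 6.44, Pramel1 with 15.8 ± 6.58 and Pramef17 with 13.3 ± 7.37 CPM per kb. Pramef8 and Pramef6 did not differ beyond their spread, nor did Pramel1 and Pramef17, while BC080695 was above Pramef8, and Pramef12 above Pramel1, by more than the SD of Pramef8 or Pramel1. Pramel5 with 2.42 ± 1.77, Pramel6 with 1.63 ± 1.33 and Pramel7 with 1.43 ± 0.337 CPM per kb came last. In clone 10 GFP-negative cells Pramef12 led with 23.6 ± 6.25 and Pramef8 followed with 19.9 ± 1.69 CPM per kb, within that spread, while BC080695 had 8.67 ± 5.06 CPM per kb. This order depended on the length used. Per kb of all exons, clone 10 GFP-positive replicates 1 to 3 had 49.3, 7.21 and 30.2 CPM of Pramef6. For Pramef8 they had 18.8, 9.73 and 14.6 CPM per kb of exon. GFP-negative replicates had 16.2, 9.40 and 12.6 of Pramef12 and 6.19, 7.10 and 7.27 of Pramef8, without overlap.

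In clone 4 a few genes, led by Pramef12 and Pramef8 in both sorts, carried nearly all of the family's level. Clone 4 GFP-positive cells had 29.6 ± 12.5 CPM per kb of Pramef12, 18.7 ± 6.06 of Pramef8, 8.42 ± 10.8 of BC080695 and 7.36 ± 2.76 of Pramel1 (SD, n = 3). Clone 4 GFP-negative cells had 33.0 ± 12.8 CPM per kb of Pramef12, 18.0 ± 3.83 of Pramef8 and 4.63 ± 0.116 of Pramel1, and 0.502 ± 0.306 or less of each other gene. Summed over the 9 genes, clone 10 GFP-positive replicates 1 to 3 held 744, 164 and 507 CPM, against 94.1, 70.8 and 85.5 CPM in GFP-negative ones. In clone 4 the sums were 136, 86.0 and 61.9 CPM against 88.7, 86.2 and 63.8 CPM, so that only the first pair differed much.

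The relatives widened the view of the gene cluster. Of the 24 genes in the chromosome 4 stretch, which are family genes, relatives and the left-out Pramel4, 16 had at least 10 counts, 13 were tested and 5 held 0 counts. In clone 10, 11 of these 13 were called higher within pairs, against 3.49% of all genes, and in clone 4 only Gm13078. Low-count genes such as Oog4 and Gm13128, with 165 and 105 counts, entered the test mainly through clone 10 GFP-positive libraries, in which they were high, so these counts of tested genes are a description and no support. The 3 chromosome 4 family genes with the smallest changes in clone 10, Pramef12, Pramef8 and Pramel1, stood at the ends of the stretch, and copies on both strands rose between them. Of all 10 relatives tested, on chromosomes 4 and 5, 9 were called higher in clone 10 (median log2 change 3.93, against -0.01 for all genes) and 2 in clone 4, Gm13078 and Gm16522 (median 3.56, or 3.28 with Oog4 at its lower bound, against 0.00 for all genes).

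**Figure D3:**
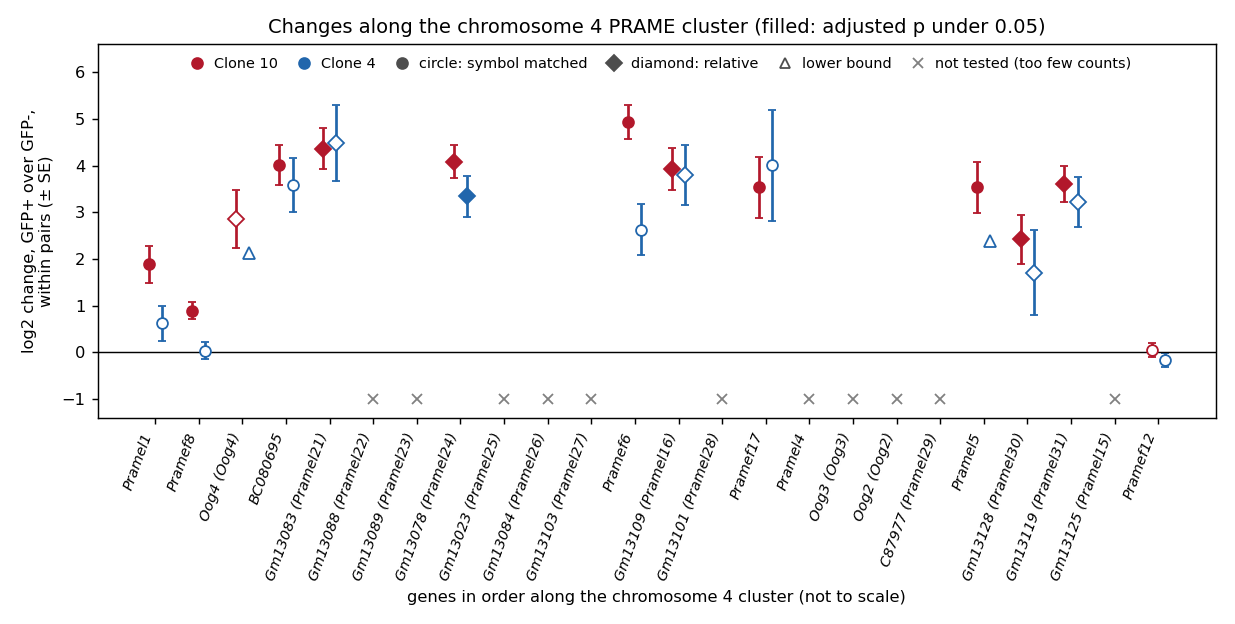
Log2 change within pairs (± SE) in clone 10 and clone 4 of 24 genes, in their order along chromosome 4 and not to scale. They are PRAME family genes, relatives and the left-out Pramel4. Circles are genes matched by symbol, diamonds relatives with their RefSeq name, filled symbols have an edgeR adjusted p under 0.05, triangles are lower bounds and crosses genes not tested. The genes at both ends, Pramel1, Pramef8 and Pramef12, lie between -0.16 and 1.89, and the tested genes between them at 1.71 or more.

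Gm13078 (RefSeq Pramel24), the relative with most counts, had 589.7, 91.3 and 380.4 CPM in clone 10 GFP-positive replicates against 29.5, 8.74 and 12.7 CPM in GFP-negative ones. It shared with BC080695 and Pramef6 the low replicate 2, and its groups did not overlap. Its log2 change within pairs was 4.08 (SE 0.36, edgeR adjusted p = 0.00165). In clone 4 it had 49.4, 7.84 and 2.19 CPM against 2.92, 0.781 and 0.647 CPM, overlapping values with a change of 3.34 (SE 0.44, adjusted p = 0.0492).

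Since reads may have been split between near-identical copies, the levels of copies at least 90% identical in coding sequence were summed. BC080695 with Gm13101, Gm13109 and Gm13119 gave 1255, 179 and 832 CPM in clone 10 GFP-positive cells against 62.9, 22.6 and 35.2 CPM in GFP-negative cells. In clone 4 this sum was 95.1, 12.0 and 4.96 CPM against 3.83, 1.88 and 1.34 CPM. Pramef6 with Gm13078 and Gm13083 gave 834, 131 and 552 CPM against 37.2, 12.1 and 16.5 CPM in clone 10, and 60.6, 10.1 and 2.92 CPM against 3.56, 1.15 and 0.769 CPM in clone 4. Every pair had the larger sum in its GFP-positive library. Other genes that share windows with BC080695, such as Gm13040, Gm13057 and Gm13043, are outside these sums, and the part of read assignment in the differences was not tested. Pramef17 with Gm13128 held 30.2, 7.95 and 22.5 CPM against 1.08, 1.69 and 1.53 CPM in clone 10, nearly all of it counted for Pramef17.

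**Figure D4:**
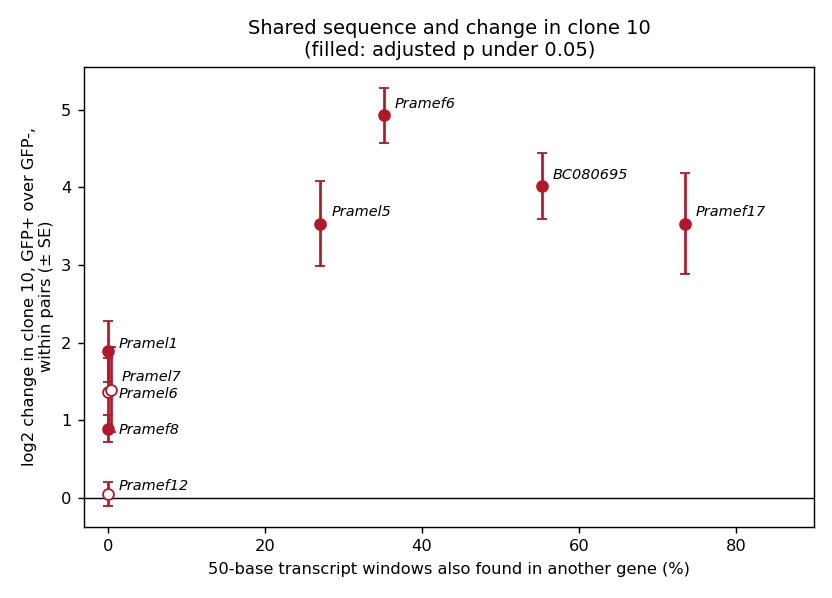
Share of 50-base transcript windows also found in another gene (percent) against the log2 change in clone 10 within pairs (± SE) for the 9 PRAME family genes, filled where the edgeR adjusted p is under 0.05. The 4 genes with shares of 27.1% to 73.5% changed by 3.53 to 4.93, and the 5 genes at 0.442% or less by 0.05 to 1.89. Relatives are not drawn and did not all follow this split. In clone 10 Oog4, at 0.725%, changed by 2.86, Gm13078, at 14.8%, by 4.08 and Gm13128, at 73.8%, by 2.42.

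Fixed lists of pathway genes were also read beside the family. Of 11 genes for the cullin 2 ligase and DNA methylation, 15 of the LIF and STAT3 pathway and 19 of retinoic acid signalling, 0 were called within pairs in clone 10, in clone 4 or over both clones. At these sample sizes that does not show that they were the same. The medians of these lists were -0.30, -0.32 and 0.01 in clone 10, beside -0.01 for all genes, and 0.08, -0.01 and -0.24 in clone 4, beside 0.00. Of the 11 genes for the cullin 2 ligase and DNA methylation, 10 had a negative change in clone 10. Uhrf1, whose protein Pramel7 is known to direct to degradation, changed by -0.30 in clone 10 (SE 0.13, edgeR adjusted p = 0.186). These counts measure its RNA and not its protein.

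Genes of the 2-cell-like state moved with the tandem copies. Of 21 tested, 20 were called higher in clone 10 within pairs (median 3.87), against 3.49% of all genes, and 5 in clone 4 (median 2.92), against 0.0725%, with Zscan4c, a telomere regulator of that state, at 4.00 (SE 0.33, edgeR adjusted p = 0.00147) and 3.24 (SE 0.39, adjusted p = 0.0492). Their summed level was 5375, 1370.0 and 3731 CPM in clone 10 GFP-positive replicates against 439, 414 and 360.5 CPM in GFP-negative ones, and 579, 152 and 278 CPM against 186, 94.9 and 213 CPM in clone 4. Eif1a held a larger part of these sums outside clone 10 GFP-positive cells than in them. It was at 157, 96.5 and 239.9 CPM in clone 4 GFP-positive cells against 154, 87.0 and 202 CPM in GFP-negative ones. Without it, a choice made after its values were seen, the sums were 5184, 1092 and 3533 CPM against 256, 131 and 134 CPM in clone 10, and 422, 55.3 and 38.4 CPM against 32.5, 7.87 and 11.5 CPM in clone 4. The low replicate 2 of clone 10 and the high replicate 1 of clone 4 are the same libraries as for BC080695. The earlier results of these data named this list, so it is no independent support, and its part in the family's change was not tested.

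Markers of other cell types were read beside these values. Stem cell markers had 0 of 10 called in either clone, at 6461 to 7342 CPM in sum in clone 10 GFP-positive libraries against 7666 to 11341 CPM in GFP-negative ones and 4997 to 7268 CPM against 5149 to 9629 CPM in clone 4, and all 10 were detected, as the label embryonic stem cell asks. Of 10 germ cell markers 3 rose in clone 10, Taf7l, Dazl and Sycp1, against 3.49% of all genes, with sums of 263 to 463 CPM against 208 to 229 CPM, and 0 in clone 4 (285 to 653 CPM against 255 to 495 CPM). Oocyte markers, where PRAME relatives are also transcribed, had 0 of 4 tested genes called, with 8.64 to 12.7 CPM in sum against 7.35 to 9.10 CPM in clone 10 and 8.09 to 15.9 CPM against 8.62 to 14.1 CPM in clone 4, and Oosp1 at 0. Of 9 endoderm and trophoblast markers tested, Krt18, Sox17 and Krt8 rose in clone 10, 3 of 9 against the same 3.49%, with sums of 175 to 383 CPM against 165 to 231 CPM, and 0 were called in clone 4 (135 to 371 CPM against 163 to 381 CPM). Of 19 fibroblast markers tested within pairs, 8 fell over both clones (median log2 change -0.87), against 0.85% of all genes called lower. In clone 10 alone 1 fell (median -0.41), against 0.731%, with sums of 1872 to 2939 CPM against 1280 to 4416 CPM. In clone 4 alone 3 fell (median -1.34), against 0.0461%, with sums of 1610 to 2551 CPM against 2001 to 3756 CPM. The part of these cells in the family's change was not tested.

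Across the 12 libraries the members varied together to different degrees, as a description in which group differences and depth are shared by all points. BC080695, Pramef6, Pramef17 and Pramel5 correlated with one another at Pearson r 0.93 to 0.98 on log2 CPM, and Pramef12 with the other 8 genes at -0.37 to 0.11. The genes outside the family whose log2 CPM was most like the members' mean were Gm12800, Usp17lc, Usp17le, Fgf1 and Gm11564, with r of 0.99 each. Gm12800 shares 50-base windows with the relative Gm12794, and Usp17lc and Usp17le belong to the 2-cell-like list.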

How the data were processed

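Counts per gene were deposited by the authors without normalization; STAR 2.3.0e, HTSeq 0.6.0, DESeq2, DESeq and mm10 are named in the submitters' processing notes, while the sources used here do not give the annotation release, the strand setting or the treatment of reads with several matches. Per the file headers, a deposited table for each clone also holds a signal (counts divided by a size factor), a log2 fold change, a score and p-values by the authors. Count columns in these tables equalled the count table (0 differed).

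The quasi-likelihood test of edgeR 4.0.16 (R 4.3.3, robust, TMM, default filter by group) was run on the counts, with Benjamini-Hochberg adjustment over the 15179 genes that passed, among them all 9 members. The planned fit had 1 term per group over 12 libraries and 8 residual degrees of freedom. The second, called within pairs, had a block for each clone and replicate number, which left 4 residual degrees of freedom. Deviations from group means correlated at 0.548 to 0.822 in the 6 same-numbered pairs, so the numbers were taken to pair the libraries. The 12 others of a clone correlated at -0.541 to -0.228. Deviations within a group cancel out, so these negative values follow from the positive ones and are no separate evidence. Intervals are 95% and SEs were derived from the F statistic. CPM is the count per 1000000 counts of the library. The fits were tested on simulated data. Alternatives were DESeq2 1.42.0, other size factors, no filter, other sample choices, passage and leaving out libraries.

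Promoter windows come from RefSeq (GRCm38.p6) and transcripts and coding lengths from GENCODE M21, whose coordinates equal the files' for all 9 genes. Identity is over the longer sequence of a global alignment. Per-kilobase levels use coding length in place of the planned protein length, as no protein table was used here. Every member was described, and the likest genes were the 5 highest by correlation. The members and gene lists were chosen with earlier results of these data known.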

Additional observations from a re-analysis of the deposited data

How the results depend on the processing

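Counts of the 9 genes called depended on the test. The share of all genes called is not given for fits with no filter, with passage or with libraries left out. Counts from those fits are a description only. Without pairing, clone 10 went to 6 and the mean of both clones to 5 with the replicate block, and the block changed no call in clone 4 (0) or in the interaction (0). DESeq2 without pairing called 2 in clone 4, 5 in clone 10, 5 for the mean, 2 between clones in GFP-negative and 7 in GFP-positive cells. No filter gave 3 for the mean, and passage as a covariate 2 between the clones in GFP-positive cells, where edgeR gave 1. Leaving out each library gave 0 to 3 in clone 10, 0 to 4 for the mean and 0 to 3 between the clones in GFP-positive cells. Within pairs, clone 4 (0) went to 2 with DESeq2, to 1 with no filter and to 0 to 2 without each pair, clone 10 (6) to 2 to 6 and the mean (5) to 2 to 6. The cause was not tested, beyond the fewer libraries where some were left out. For the mean within pairs, Pramel7 turned to -0.041 without clone 4 replicate 3 (-0.041 to 1.17 over the pairs left out) and Pramef12 to 0.043 without clone 10 replicate 1 (-0.14 to 0.043), neither called. Members with under 300 counts, Pramel5, Pramel6 and Pramel7, are limited by depth.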

Other observations

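Prame itself, the gene that gives the family its name, was left out for its 9 counts. They were 5 counts in the 3 clone 10 GFP-positive libraries and 4 counts in the clone 4 GFP-positive ones, all in replicate 1. All 6 GFP-negative libraries had 0 counts. Set against a floor of 3 counts over the GFP-negative group, the ratio was 1.53 in clone 10 and 1.16 in clone 4. These ratios give the 5 and 4 counts no error of their own, so they set no minimum rise. Pramel3 had 3 counts in clone 10 GFP-positive, 1 in clone 10 GFP-negative, 3 in clone 4 GFP-positive and 0 in clone 4 GFP-negative cells. Both were noticed after their values were seen and were not tested.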
